A study of Mus musculus with 9 samples.

Results

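The livers of mice on a high fat diet, with or without metformin, were set as 1 group against the livers of mice on chow. All 9 samples of the series entered, 6 high fat pools and 3 chow pools, each holding liver tissue mixed from 4 male mice of the inbred strain C57BL/6J, so that 36 animals contributed in all. The chow pools came from mice on standard chow for 17 weeks from 3 weeks of age, with no gavage recorded. Both kinds of high fat pool came from mice on a diet with 45% of its energy as fat for the same 17 weeks. In the last 5 weeks 3 of these pools received saline by gavage, and the other 3 received 3 mg of metformin per kg of body weight daily by the same route; metformin is the standard glucose-lowering drug of type 2 diabetes. All mice were 20 weeks old. Diet and gavage cannot be told apart in this comparison, because every high fat pool had both. In pooled tissue, fewer cells of a type and less RNA per cell cannot be told apart either.

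A diet rich in fat leads hepatocytes to store triglyceride, and it is known to alter lipid synthesis, fatty acid oxidation, bile acid handling and the daily rhythm of liver transcripts. Long noncoding RNAs, which are the majority of the named transcripts on this array, can act on the gene next to them, serve as hosts of small RNAs, or have no known role. Several of those read here lie in imprinted clusters, where one parental copy is silent.

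The diet calls were few and mostly downward. Of 62036 probes tested, 464 (0.748%) differed between the 6 high fat pools and the 3 chow pools at an adjusted p under 0.05 by limma, a linear model that pools the spread over all probes. Among them 142 (0.229%) were higher on the high fat diet and 322 (0.519%) were lower. The higher ones differed by a median of 0.97 on the log2 scale (1.97-fold, range 0.53 to 2.80), and the lower ones by a median of -1.66 (3.15-fold, range -4.15 to -0.59). At least 2-fold differences numbered 63 of the 142 and 270 of the 322. In all 464 every high fat pool lay beyond every chow pool, which held for 5513 of the tested probes (8.89%), 2634 with the high fat pools above chow (4.25%) and 2879 with them below (4.64%). All levels are log2 signals relative to the 75th percentile of each array. Levels of different probes are compared below as signals only, not as amounts of RNA.

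Lower probes had a lower mean signal than higher ones, and their surplus moved with the scaling. Median levels were -2.47 for the lower probes and -1.16 for the higher ones, against -0.71 over all tested probes. This level is a mean over all 9 arrays, 6 of them high fat, so a fall itself lowers it and a rise raises it. Levels on chow alone were not compared. In all, 71 called probes were above background in no high fat pool and 19 in no chow pool. The filter of 3 arrays admitted the 71 only because all 3 chow pools exceeded background. Among the 217 called probes that were above background on all 9 arrays, 91 were higher (median 0.89) and 126 were lower (median -1.36). With quantile normalization in place of the 75th percentile, 268 were higher and 264 lower, so the share of higher calls went from 30.6% to 50.4%. The median difference over all tested probes was -0.01.

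**Figure D1:**
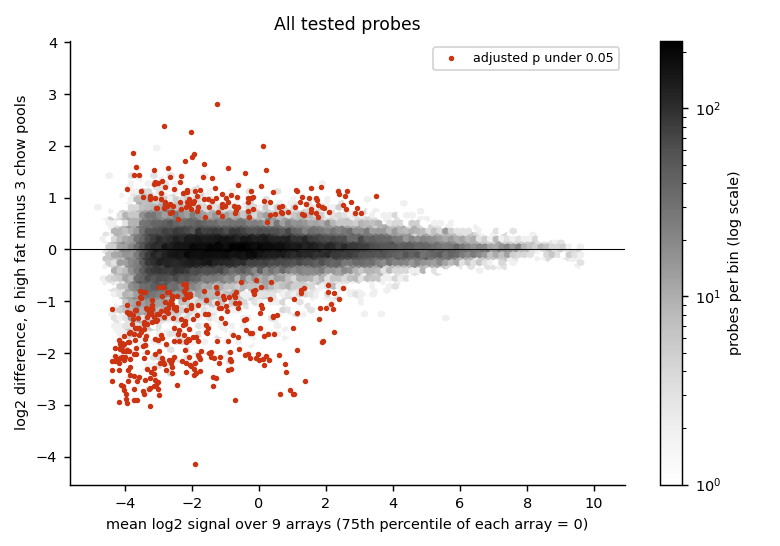
The vertical axis gives the log2 difference of the 6 high fat pools minus the 3 chow pools for every tested probe, the horizontal axis its mean log2 signal over 9 arrays, grey shade the number of probes per bin on a log scale, and red points the 464 called probes. The 322 called probes below 0 have a median level of -2.47, a mean over all arrays that their own fall lowers.

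The number of calls changed with the pool left out and with how slide entered the fit, and the part of the slide itself was not tested. Chow replicate 1 stood apart, with a correlation over tested probes of at most 0.975 with any other array, against 0.984 to 0.990 for the best match of each other array. The first principal component, with 31.5% of the variance, put the chow pools at -97, -51.2 and -40.2 and the high fat pools at 8.8 to 50.5. The arrays lay on 3 slides, and the 3 chow pools shared slide 1 with saline replicate 1. Saline replicates 2 and 3 shared slide 2 with metformin replicates 1 and 2, and metformin replicate 3 was alone. Slide and scan cannot be told apart, because each slide had its own scan. Without chow replicates 1, 2 and 3 in turn, 11, 1 and 359 probes were called. Leaving out saline replicates 1, 2 and 3 gave 1483, 14 and 463 calls, and leaving out the metformin replicates in the same order gave 172, 159 and 11. With all pools, 10792 probes (17.4%) had an unadjusted p under 0.05, of which 4709 were higher (7.59%) and 6083 lower (9.81%). This number ran from 8586 to 12788 when 1 pool was left out.

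**Figure D2:**
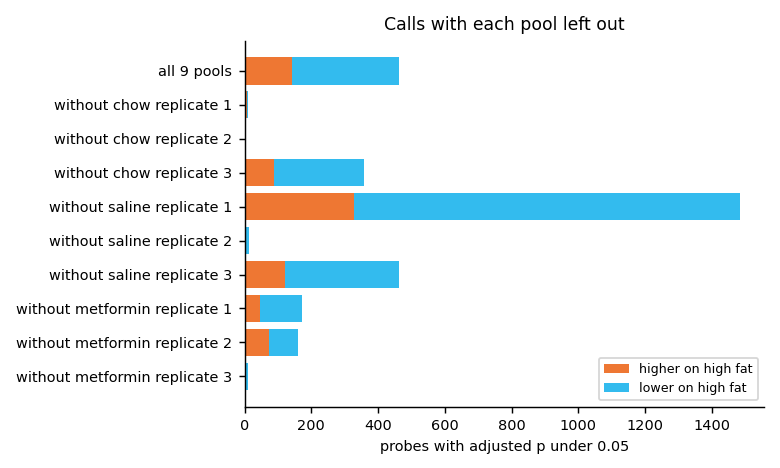
Bars give the number of probes with a limma adjusted p under 0.05, higher (orange) and lower (blue) on the high fat diet, with all 9 pools and with each pool left out. The count goes from 464 with all pools to 1 without chow replicate 2 and 1483 without saline replicate 1.

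With slide as a fixed block, where saline replicate 1 alone is set against chow, 2 probes were called and 0 of them were among the 464, with 3110 at an unadjusted p under 0.05. Saline replicate 1 was therefore also compared with the other high fat pools. Over the 464 called probes, its median difference from chow was 0.85 for those higher (0.98 in the other 5 high fat pools) and -1.60 for those lower (-1.67), but this pool helped to choose those probes. Of the probes called from the other 5 high fat pools alone, the 327 higher ones had a median of 0.89 in those 5 and 0.59 in saline replicate 1, and 302 of them (92.4%) lay above all 3 chow pools there. The 1156 lower ones had a median of -1.16 in the 5 pools and -0.32 in saline replicate 1, and 714 of them (61.8%) lay below all chow pools. Because the same 3 chow pools helped to choose these probes, lying beyond them is in part built in. How often saline replicate 1 lay beyond the chow pools over all tested probes was not computed.

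Other left-out pools gave these values for the lower probes. The 342 probes called lower without saline replicate 3 had a median of -1.95 in the other 5 and -1.10 in that pool, with 96.2% below all chow pools, and the 125 called without metformin replicate 1 had -1.77 and -1.40, with 88.8%. For the 86 called lower without metformin replicate 2 the medians were -2.06 and -1.90 (98.8% below all chow pools). Fewer of its lower probes lay below all chow pools in the pool on their slide (61.8%) than in these 3 (88.8% to 98.8%), though the gap to the other 5 was as wide for saline replicate 3. For higher probes it did not stand apart, with 92.4% above all chow pools against 89.3% for saline replicate 3, 100% for metformin replicate 1 and 78.1% for metformin replicate 2. The probe lists differ, each was chosen with the same chow pools, and no share over all tested probes was computed for them. The part of the slide in this was not tested.

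**Figure D3:**
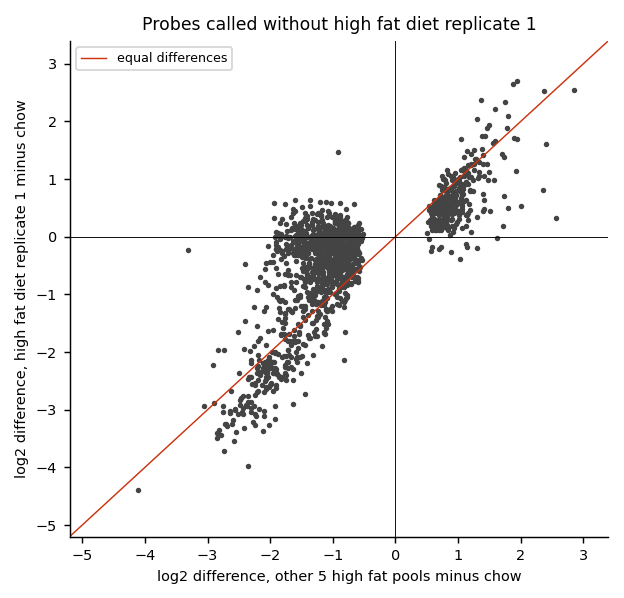
Each point is 1 of the 1483 probes called when saline replicate 1 (titled high fat diet replicate 1) was left out; the horizontal axis gives the log2 difference from chow of the other 5 high fat pools, the vertical axis that of the left-out pool, and the red line equal differences. Of the points at left, 1156 in all, many lie near 0 on the vertical axis (median -0.32), while the 327 points at right have a median of 0.59.

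Named genes made up 30 of the 464 calls, 11 higher and 19 lower, out of 2711 named genes tested (1.11%, against 0.748% of all probes). Another 433 called probes had no gene name in the sources used here, and 1 was a dimmer probe of Gm34607, whose brightest probe did not pass. Each of the 30 kept its sign under all of the 17 or 18 other settings run for it (17 for probes not above background on all 9 arrays), and passed under between 3 and 14 of them. With normexp background correction 15 of the 30 passed: all 10 that were above background on all 9 arrays, whose differences were 0.596 to 0.939 times those above, and 5 of the other 20, whose differences were 0.174 to 0.488 times. The size of a dim transcript's change, bounds included, therefore depends on the background correction. Without chow replicate 1 only Gm38830 passed (adjusted p = 0.0399), and the adjusted p-values of all 30 ran up to 0.109, while their differences were 0.759 to 1.06 times those with it. Without chow replicate 2 Gm38830 did not pass either (limma adjusted p = 0.0515), and the only probe called was the unnamed A_55_P2033600. With slide as a fixed block 0 of the 30 passed. In saline replicate 1 their differences from chow were 0.531 to 1.3 times those of the other 5 high fat pools, and nearer to chow for 18 of 30.

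Promoter windows of 4 of these transcripts are given for description, and no expression value depends on them. They are those of Chaserr, which restrains the chromatin remodeller gene Chd2, and of Gm32342 beside the retinoic acid hydroxylase genes Cyp26a1 and Cyp26c1. They also include Gm32128, with the smallest p among the higher named genes, and the imprinted Rian. The windows run from 250 bases before to 50 bases after the annotated start, from RefSeq on GRCm38.p6. Chaserr lies at chr7:73558346-73558645 on the minus strand, Gm32342 at chr19:37697497-37697796 on the minus strand, Gm32128 at chr1:191420325-191420624 on the plus strand and Rian at chr12:109603695-109603994 on the plus strand. Capitals mark CCAAT boxes (CCAAT), GC boxes (GGGCGG) and nuclear receptor half-sites (AGGTCA), searched on both strands.
Chaserr: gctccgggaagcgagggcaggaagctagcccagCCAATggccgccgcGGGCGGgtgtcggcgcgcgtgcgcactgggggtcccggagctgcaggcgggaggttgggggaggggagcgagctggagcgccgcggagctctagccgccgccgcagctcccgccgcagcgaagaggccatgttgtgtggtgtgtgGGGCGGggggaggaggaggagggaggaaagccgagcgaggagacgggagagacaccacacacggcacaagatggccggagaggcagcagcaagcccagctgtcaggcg
Gm32342: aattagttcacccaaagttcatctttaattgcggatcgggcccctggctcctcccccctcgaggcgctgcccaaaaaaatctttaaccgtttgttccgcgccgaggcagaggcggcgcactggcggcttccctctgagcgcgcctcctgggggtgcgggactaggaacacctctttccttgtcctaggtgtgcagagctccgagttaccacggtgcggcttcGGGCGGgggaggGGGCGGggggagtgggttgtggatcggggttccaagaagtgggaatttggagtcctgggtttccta
Gm32128: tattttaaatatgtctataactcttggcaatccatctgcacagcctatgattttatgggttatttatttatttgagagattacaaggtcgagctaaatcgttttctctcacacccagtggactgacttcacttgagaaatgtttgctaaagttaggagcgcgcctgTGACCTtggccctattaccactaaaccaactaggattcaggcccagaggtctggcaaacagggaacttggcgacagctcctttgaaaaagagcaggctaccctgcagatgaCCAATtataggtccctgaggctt
Rian: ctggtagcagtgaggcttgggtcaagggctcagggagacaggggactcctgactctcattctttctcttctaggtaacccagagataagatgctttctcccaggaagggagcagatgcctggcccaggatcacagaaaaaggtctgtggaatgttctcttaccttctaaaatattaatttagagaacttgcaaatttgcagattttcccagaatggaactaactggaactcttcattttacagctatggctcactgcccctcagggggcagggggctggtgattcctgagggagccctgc

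The Chaserr window held 30 CG dinucleotides and the Gm32342 window 21, against a median of 7 over all windows, and Gm32128 held 5 and Rian 0. Among the 30 named genes called, 22 had windows, 30 in all since a gene can have several. A CCAAT box was in 11 of the 30 windows (37.4% of all 32851 windows), and a GC box in 3, those of Chaserr, Gm32342 and Gm41949 (35.7%). The TATA box (TATAAA) was in 9 (13.6%), the half-site AGGTCA in 7 (16.3%) and the E-box CACGTG in 1 (7.15%). Windows of 1 gene overlap, so that they are not independent, and a match describes letters only.

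Chaserr, a noncoding RNA transcribed beside Chd2 that is known to limit Chd2 expression, was called higher. It was the only one so called of 18 named long noncoding RNAs tested, where 0.229% of all probes were called higher. That list was chosen with earlier results of these data known. Chaserr was at -3.86, -4.00 and -3.82 in the 3 chow pools, none above background. In the high fat pools it lay between -3.15 and -2.08, with a median of -2.59, and was above background in 5 of 6. The groups did not overlap, and the metformin pools (-2.08, -2.25 and -2.66) reached higher than the saline pools (-3.15, -2.99 and -2.53). Chaserr was 2.43-fold higher on the high fat diet (limma adjusted p = 0.0386), a size that is uncertain since no chow pool was above background. Changes given below as at least so many fold are bounds. Such a bound sets the brighter group against the lowest signal called above background on the arrays of the dimmer group, or the probe's own signal where that is higher. For Chaserr it equalled the estimate, so it sets no lower limit. Bounds hold for these signals only, not for those after normexp. With normexp Chaserr was at 0.40 and did not pass (adjusted p = 0.0982). Its metformin pools differed from its saline pools by 0.56 (unadjusted p = 0.0214, adjusted p = 0.68). The saline pool on the slide of the chow pools was 0.74 above chow, and the other 5 high fat pools 1.39.

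Among the called transcripts, 1 lower and 1 higher lie beside genes of retinoid metabolism, a pair grouped after the values were seen. Gm32342, a predicted noncoding RNA that overlaps Cyp26c1 and the exocyst gene Exoc6 and lies near Cyp26a1, fell by 2.37 (SE 0.36, adjusted p = 0.0288). The chow pools were at 2.18, 2.21 and 2.81. The saline pools were at -0.53, 0.00 and 0.14 and the metformin pools at 1.20, 0.17 and -0.78, so that the highest high fat pool stayed below the lowest chow pool. It was above background on all 9 arrays, and the saline pool on the slide of the chow pools differed from them by -2.93. Gm36317, which overlaps the lipid transfer gene Vps13d and lies near the retinal reductase gene Dhrs3, rose by 1.24 (SE 0.21, adjusted p = 0.0372). Its chow pools were at -1.54, -1.24 and -1.62, and its high fat pools ran from -0.84 to 0.22 with a median of -0.12. Cyp26a1, Cyp26c1 and Dhrs3 themselves had no named probe.

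Of the imprinted Dlk1-Dio3 cluster, Rian was called lower on the high fat diet, and Meg3 just missed the threshold. Rian, host of many small nucleolar RNAs, was at -0.75, -2.12 and -0.90 in the chow pools, all above background. Of the high fat pools 5 lay between -3.72 and -3.46, and the sixth, metformin replicate 1, was at -2.43 and alone above background. Rian fell by 2.13 (SE 0.34, adjusted p = 0.0316), a size that is uncertain since 5 of 6 pools were not above background. Without chow replicate 1 it was at -1.88 (adjusted p = 0.0914). Meg3, a neighbouring maternally expressed RNA, was at -0.26, -1.05 and -0.02 in the chow pools and from -2.06 to -1.0 in the high fat pools, with a median of -1.84. Chow replicate 2 at -1.05 lay below metformin replicate 1 at -1.0, and the difference of -1.29 (SE 0.26) did not pass (adjusted p = 0.0526).

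In both transcripts, chow replicate 2 was the lowest chow pool and metformin replicate 1 the highest high fat pool. Kcnq1ot1, the silencing RNA of another imprinted cluster, was at -1.12, -1.21 and -1.19 in the chow pools and from -2.65 to -1.26 in the high fat pools, with no overlap (difference -0.81, SE 0.28, adjusted p = 0.167). The pool nearest to chow was saline replicate 1 on their slide, with a difference of -0.09 from their mean, where the other 5 had -0.95. Airn, which silences Igf2r, differed by 0.05 (SE 0.26, adjusted p = 0.945), and its other probe by 0.36. Of 7 imprinted noncoding RNAs tested from a list of 21, limma called Rian alone (0.519% of all probes were called lower), 3 were lower and 0 higher at an unadjusted p under 0.05 (9.81% and 7.59% of all probes), and the median was -0.29, against -0.05 over all named genes.

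Other named transcripts that rose are mostly predicted noncoding RNAs without a known role. Gm32128, near the phosphatase subunit gene Ppp2r5a, was at -3.97, -3.60 and -3.76 in the chow pools, none above background. Its high fat pools lay between -2.61 and -2.12 with a median of -2.51, all above background and all above chow. That made it 2.5-fold higher (bound 2.49-fold, limma adjusted p = 0.0112), with 1.30 above chow in the pool on their slide and 1.33 in the other 5. With normexp it was at 0.41 and did not pass (adjusted p = 0.0588). Gm34472, near the 14-3-3 gene Ywhaz, had the smallest SE of the 30. It was at -2.93, -2.88 and -2.71 on chow, with 2 of 3 pools above background. On the high fat diet it was between -2.13 and -1.95, with a median of -2.06, a rise of 0.78 (SE 0.11, adjusted p = 0.0248). With normexp the rise was 0.33 and did not pass (limma adjusted p = 0.0672).

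Among the RIKEN transcripts called higher, 4930533P14Rik was at -1.20, -0.99 and -0.78 on chow and from -0.32 to 0.23 on the high fat diet (median 0.00), a rise of 0.99 (SE 0.15, adjusted p = 0.0276). Its lowest high fat pool was saline replicate 1, at 0.67 above chow against 1.05 in the other 5. 4930588K23Rik, near Tbx1 and Gnb1l, was at -2.28, -1.80 and -2.0 on chow and from -1.29 to -0.84 on the high fat diet, a rise of 0.94 (SE 0.14, adjusted p = 0.0285). In both RIKEN transcripts every pool was above background.

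The remaining higher calls came closer to the threshold. Gm36005, near Ranbp17 and Gabrp, rose by 0.82 (SE 0.14, adjusted p = 0.037), from 1.17, 1.37 and 1.49 on chow to between 1.91 and 2.42. Gm33702 rose by 0.91 (SE 0.17, adjusted p = 0.0462), with chow pools within -0.96 to -0.89 and high fat pools within -0.40 to 0.47. Gm31534 rose by 0.68 (SE 0.13, adjusted p = 0.0485), while its other probe differed by 0.24 (adjusted p = 0.466). Gm41949, which overlaps Ubxn4, was above background in no chow pool and at least 1.9-fold higher (adjusted p = 0.0496). With normexp it was at 0.32 and did not pass (limma adjusted p = 0.0896). Gm41464, the next by p, missed the threshold at 1.21 (SE 0.24, adjusted p = 0.0501).

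**Figure D4:**
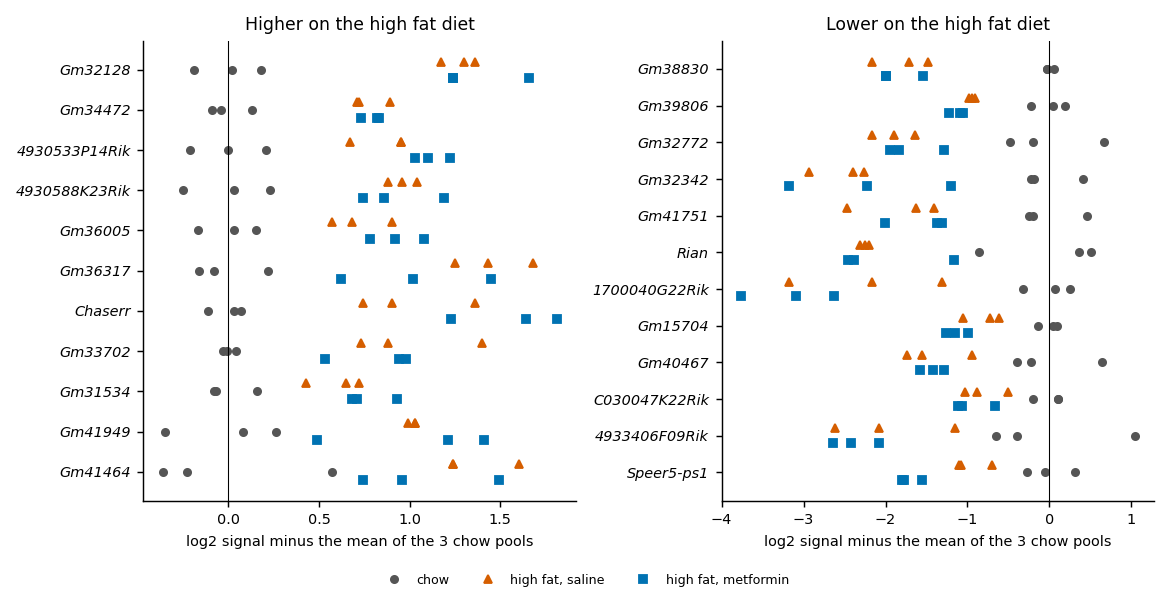
Points give the log2 signal of each pool minus the mean of the 3 chow pools for the noncoding transcripts in the lists of 12 named genes of smallest p per direction, as grey circles for chow, orange triangles for high fat with saline and blue squares for high fat with metformin. In every transcript shown the high fat pools lie on one side of all chow pools; Gm41464 alone among them missed the threshold, at an adjusted p of 0.0501.

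Gm38830, near Rnf103 and the membrane remodelling gene Chmp3, fell with the smallest p of all named genes. It was at -2.83, -2.91 and -2.91 in the chow pools and between -5.05 and -4.36 in the high fat pools, with a median of -4.73 and none above background. It was at least 2.48-fold lower (adjusted p = 0.00669), with -1.71 in saline replicate 1 and -1.83 in the other 5. With normexp it was at -0.35 and did not pass (adjusted p = 0.0559). Gm39806 was at -2.74, -2.89 and -3.15 on chow and between -4.15 and -3.84 on the high fat diet, at least 1.97-fold lower (adjusted p = 0.0248). Gm32772 was at -2.01, -2.88 and -3.16 on chow and between -4.85 and -3.97 on the high fat diet, at least 2.7-fold lower (adjusted p = 0.0248). With normexp Gm39806 was at -0.23 and Gm32772 at -0.40, and neither passed (limma adjusted p = 0.187 and 0.0966). All 3 transcripts were above background in no high fat pool. The filter of 3 arrays then required every chow pool to be above it, so they were tested only through the chow pools.

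1700040G22Rik was at -0.97, -1.15 and -1.54 in the chow pools, and the high fat pools spread from -4.98 to -2.53 with a median of -4.08. The difference was -2.69 (SE 0.44, adjusted p = 0.0324), uncertain in size because 1 of 6 high fat pools was above background, and with normexp it was -0.86 (adjusted p = 0.017). 4933406F09Rik fell by 2.16 (SE 0.40, adjusted p = 0.0423), with chow replicate 1 at 0.18 and the other chow pools at -1.25 and -1.51. Without that pool it was at -1.64 (adjusted p = 0.0938). Its size is uncertain because 2 of 6 high fat pools were above background. With normexp it was at -0.89 and did not pass (limma adjusted p = 0.0671). Gm40467 fell by 1.43 (SE 0.24, adjusted p = 0.0358), again with chow replicate 1 (0.59) above the other two chow pools (-0.45 and -0.28), and was at -1.11 without it (adjusted p = 0.0804).

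Gm41751, which overlaps the protease inhibitor genes Spink10 and Spink13, was at -1.03, -0.37 and -1.08 on chow and between -3.30 and -2.14 on the high fat diet. It fell by 1.70 (SE 0.27, adjusted p = 0.0305), with all pools below chow. Gm15704, which overlaps Rassf8, fell by 0.96 (SE 0.16, adjusted p = 0.0341), with -0.62 in saline replicate 1 and -1.03 in the other 5. C030047K22Rik, which overlaps the cadherin gene Cdh10, fell by 0.89 (SE 0.16, adjusted p = 0.0418), with -0.51 and -0.96 in the same order. Its size is uncertain, since 4 of 6 high fat pools were above background. With normexp it was at -0.28 and did not pass (limma adjusted p = 0.139). In both Gm15704 and C030047K22Rik the pool on the slide of the chow pools was the nearest to chow.

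Speer5-ps1, a pseudogene of a testis gene family, was at -0.78, -1.14 and -1.36 in the chow pools. The saline pools were at -2.19, -2.17 and -1.79 and the metformin pools at -2.87, -2.89 and -2.65, so that no pool of the 3 groups overlapped another group. It fell by 1.34 (SE 0.25, adjusted p = 0.0462), and the metformin pools differed from the saline pools by -0.75 (unadjusted p = 0.00233, adjusted p = 0.514). It was the only one of 26 genes named as pseudogenes that was called, where 1.11% of all named genes were.

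Another 7 lower calls had larger p-values (adjusted 0.0482 to 0.0496) and were chosen because they passed. Gm41568, which overlaps the receptor gene Notch3, fell by 0.62 (SE 0.12), from 0.86, 0.65 and 0.82 on chow to between -0.05 and 0.25. Gm14198, which overlaps Zfp341 near the cell cycle gene E2f1, fell by 0.89 (SE 0.17), with the 3 metformin pools (-1.74, -1.54 and -1.59) below the 3 saline pools (-1.17, -1.09 and -1.18), while its other probe was at -0.57 (adjusted p = 0.252). Gm31845, near Ets2, and Gm35715, which overlaps Ccdc12, were in no high fat pool above background. Their bounds of 1.71-fold and 1.8-fold lower lie close to the estimates of 1.74-fold and 1.9-fold. With normexp these 2 were at only -0.14 and -0.16, so their sizes are uncertain. Gm34493, Gm33210 and Gm36880 were at -1.15, -1.08 and -1.15. Their sizes are uncertain, since 4, 2 and 1 of 6 high fat pools were above background, and with normexp they were at -0.41, -0.33 and -0.21. With normexp these last 5 did not pass (adjusted p = 0.0913 to 0.478).

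Of the unnamed probes, A_55_P2033600 was at -4.97, -3.81 and -4.47 in the chow pools, none above background, and between -2.25 and -1.75 in the high fat pools. It was higher by at least 4.15-fold (limma adjusted p = 0.00669) and passed without chow replicate 1 too (adjusted p = 0.0341). RIKEN clone E130306B04 was at least 2.12-fold higher (adjusted p = 0.00669), with 3 of 6 high fat pools above background. A_55_P2055888 went from -2.25, -2.62 and -3.17 on chow to between -5.61 and -4.73, at least 2.89-fold lower (adjusted p = 0.00669), and A_55_P2142676 was at least 2.4-fold lower (adjusted p = 0.00836), a call lost with normexp (adjusted p = 0.0531). The last 2 were above background in no high fat pool.

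The saline and metformin pools were set side by side for the called probes. Both arms are measured against the same 3 chow pools, and the fit of 6 pools against 3 favours probes that are alike in both arms. The 142 higher probes had a median difference from chow of 0.93 in the saline pools and 0.99 in the metformin pools, and the 322 lower probes -1.56 and -1.72. The metformin pools lay farther from chow than the saline pools for 88 of the 142 and for 233 of the 322, with median differences between the arms of 0.09 and -0.19. The share over all tested probes was not computed. Saline replicate 1 shared the slide of the chow pools and no metformin pool did. The parts of drug and slide in this lean were not tested. Limma called 0 of the 464 between metformin and saline (lowest adjusted p = 0.483). At an unadjusted p under 0.05 there were 35 (7.54%), near the 6.64% of all tested probes, of which 4 (0.00645%) were called. A p that misses the threshold does not show that the arms were equal.

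**Figure D5:**
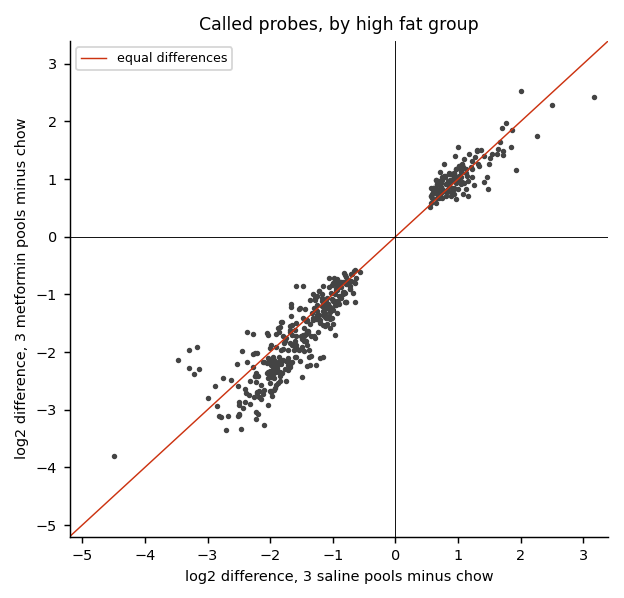
Each point is 1 of the 464 called probes; the horizontal axis gives the log2 difference of the 3 saline pools minus chow, the vertical axis that of the 3 metformin pools minus chow, and the red line equal differences. Both axes use the same chow pools; points lie on both sides of the line, and 233 of the 322 lower probes lie below it.

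For named genes the arms are given side by side, as differences from the shared chow pools. Gm34472 was 0.77 higher with saline and 0.79 with metformin, and Gm41949 1.02 and 1.04. Chaserr was 1.00 higher with saline and 1.56 with metformin, and Gm36317 1.46 and 1.03 (unadjusted p = 0.0849, adjusted p = 0.797). For Gm38830, with no high fat pool above background, and 1700040G22Rik, with 1 of 3 saline pools and 0 of 3 metformin pools above it, the arms cannot be compared in size. Whether genes differ in how alike their arms were was not tested.

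Genes of liver pathways could hardly be read. Of 276 genes in 11 pathway lists only 10 had a named and tested probe, 9 of them through RIKEN clones that may not read the main mRNA, and limma called 0 of them (2 at an unadjusted p under 0.05). The clock repressor gene Cry2 was at 1.08, 1.18 and 0.96 on chow and between 0.37 and 0.79 on the high fat diet, without overlap (difference -0.46, SE 0.13, adjusted p = 0.112). The chemokine gene Cxcl14 was at -2.64, -1.94 and -1.96 on chow and between -1.89 and -0.29 on the high fat diet (0.76, SE 0.32, adjusted p = 0.254). Its highest value was that of saline replicate 2, and the other 5 reached no higher than -1.41.

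The growth factor gene Igf1 ranged from 2.96 to 3.27 on chow and from 1.86 to 3.20 on the high fat diet, with overlap (-0.40, SE 0.25, adjusted p = 0.435). The desaturase gene Fads2 (0.10), the interferon-induced gene Mx2 (0.17), the flavin monooxygenase gene Fmo2 (-0.22), the superoxide dismutase gene Sod1 (0.06) and the respiratory chain genes Ndufab1 (0.08) and Ndufa6 (-0.03) had adjusted p-values of 0.587 to 0.945. The sign for Fads2, Sod1, Ndufa6 and Airn turned when a single pool was left out. Named transcripts, most of them noncoding, that overlap a pathway gene or lie within 50 kb of one numbered 74 summed over the 11 lists, with some in more than one list and with medians of -0.41 to 0.31 per list. Limma called 0 (lowest adjusted p = 0.0621), and 15 had an unadjusted p under 0.05, where 17.4% of all probes did.

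Markers of liver cell types gave no check of the tissue or of its makeup. Of 63 markers in 10 lists, for hepatocytes, macrophages, stellate and endothelial cells among others, 0 had a named probe. Tested transcripts that overlap a marker or lie within 50 kb of it numbered 17 summed over the lists, where a transcript can be in several. Limma called 0 of them (1 at an unadjusted p under 0.05, lowest adjusted p = 0.15). Hnf4aos, on the opposite strand of the hepatocyte factor gene Hnf4a, was above background in every pool, at 2.09, 2.34 and 2.37 on chow and between 1.65 and 2.27 on the high fat diet (-0.26, adjusted p = 0.421). Whether shares of cell types moved with the calls was not tested.

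Classes of noncoding RNA held few calls. Among 18 named long noncoding RNAs tested from a list of 50, Chaserr was called higher and Rian lower, and the median was -0.04. Neat1, a scaffold of nuclear paraspeckles, spread from -2.32 to -0.79 on chow and from -2.85 to -0.75 on the high fat diet (-0.13, adjusted p = 0.913). Limma called 0 of 7 small nucleolar RNA host genes (0 at an unadjusted p under 0.05, median -0.13), 0 of 6 microRNA host genes (0, median 0.05) and 0 of 53 opposite-strand transcripts (7, median -0.04), where 1.11% of all named genes were called and 17.4% of all probes had an unadjusted p under 0.05. Gssos2, opposite the glutathione synthetase gene Gss, was at -0.46 (adjusted p = 0.378), with saline pools between -1.51 and -1.11 and metformin pools between -1.22 and -0.29.

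By probe source, calls made up 0.724% of 29011 probes from the Agilent catalogue, 0.727% of 16792 NONCODE probes and 0.593% of 9439 RIKEN clone probes. RefSeq predicted noncoding probes were called at 1.08% of 5720, and Ensembl probes at 2.39% of 461, where all 11 calls were lower. Agilent catalogue calls were 40 higher and 170 lower, while RIKEN clone calls were 28 each way. None of 140 probes to ultraconserved regions was called (17.9% had an unadjusted p under 0.05, against 17.4% of all). The sources differ in level, with medians of 0.28 for the Agilent catalogue and -1.78 for RefSeq predicted probes, and the part of level in these shares was not tested.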

How the data were processed

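Liver RNA labelled with Cy3 was read on 9 one-colour Agilent arrays. The deposited processed signal is an intensity, already background-subtracted and spatially detrended, and extracted by the authors with Feature Extraction 11.5.1.1, per the file headers (10.7 per the submitters' processing notes). The authors' deposited series table holds log2 values, which matched the log2 processed signal less each array's 75th percentile within 0.01 for 100% of probes, with column medians of -2.39 to -2.16. The deposited files also hold 0 or 1 marks of outlier spots and of spots above background.

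Here, log2 processed signals of 175906 spots per array, less 73 to 192 outlier spots, were averaged per probe (97836 probes), and the 75th percentile was subtracted. No spot was saturated, and 53.0% to 63.5% of spots were above background. A probe was tested if 0.5 or more of its spots exceeded background on at least 3 of 9 arrays and no array lacked a value (62036 of 62091). The number of arrays limits the precision, and pools give less spread than single mice would. The labels call the pools of a group biological replicates.

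The 2 groups were tested in limma 3.58.1 under R 4.3.3 (functions lmFit and eBayes, 7 residual and 3.79 prior degrees of freedom), with Benjamini-Hochberg adjustment at 0.05 over all tested probes. A fit with 1 mean per group gave the values of the saline and metformin pools. The fit was tested on simulated data. Names came from RefSeq accessions, RIKEN clones or gene names in the probe identifiers, matched to RefSeq genes of GRCm38.p6; the array's header names mm9, so no probe position is given. Of several probes of a gene, the brightest was used. The text names the 12 genes with the smallest p in each direction, 2 unnamed probes each way, genes listed by name, and other named genes that passed. Some genes that the rule names are not reported here. The members and lists were chosen with earlier results of these data known. Alternatives were normexp (offset 50, on the median signal and background, since the mean signal was not used here), quantile normalization, the series table, other filters, slide and replicate blocks, and each pool left out.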

Additional observations from a re-analysis of the deposited data

Results flagged for a closer look

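Among the 6 high fat pools, 1 pool lay far from the other 5 in 3 of 44 named genes checked (Dixon's gap test), and chance alone gives about 1 in 20. Rian was at -2.43 in metformin replicate 1, with a gap of 0.796 of the range to the next pool. Meg3, in the same imprinted cluster, was at -1.0 in the same pool (0.696 of the range). Cxcl14 was at -0.29 in saline replicate 2 (0.699 of the range).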

How the results depend on the processing

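The count of 464 calls went to 2 with slide as a fixed block, to 6968 with slide as a random block (consensus correlation -0.149), and ran from 1 to 1483 when single pools were left out. It stayed within 1.5 times, at 425 to 569, with 1 mean per group, normexp, quantile normalization, the series table and other filters on dim probes. The probes were not all the same: of the 464, normexp shared 280, no filter 243, the filter on all 9 arrays 217, 1 mean per group 357, quantile normalization 393 and the series' log2 values all of them. With no filter 75 were higher and 350 lower. With a replicate block 335 were called, 225 of them among the 464. Same-numbered pools deviated together weakly or not at all (correlations of -0.09 to 0.13). With 3 pools per group this cannot show whether the numbers pair the pools. Between metformin and saline, 0 of the 464 were called under the alternatives run (slide as a fixed block, replicate block and each pool left out; 25 to 43 at an unadjusted p under 0.05). Of single values, 540 kept their direction and side of the threshold, 272 lost their call, 8 gained one and 18 turned sign. With slide as a fixed block Fads2 turned to -0.04, Igf1 to 0.10, Hnf4aos to 0.00, Ndufa6 to 0.33 and Neat1 to 0.01, and with normexp Ndufa6 to 0.04. Leaving out 1 pool at a time gave -0.02 to 0.26 for Fads2, -0.10 to 0.06 for Ndufa6, -0.02 to 0.21 for Sod1, -0.05 to 0.19 for Airn and -0.49 to 0.28 for Neat1, so that each turned sign. The causes were not tested. Probes near background limit the size of many lower calls.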

Other observations

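Genes of the retinoid pathway take up, convert and break down vitamin A, of which the liver holds the main store. Of transcripts named beside 33 such genes, a list chosen after values had been seen, 10 were tested and 2 were called, Gm32342 lower and Gm36317 higher, with a median of 0.02, where 1.11% of all named genes were called. The 4930504D19Rik transcript beside the retinoic acid hydroxylase gene Cyp26b1 was at -3.05, -2.54 and -2.68 on chow and between -2.41 and -1.0 on the high fat diet, without overlap (1.12, SE 0.27, adjusted p = 0.0745). The 0610031O16Rik transcript over the alcohol dehydrogenase gene Adh7 was at -0.49 (adjusted p = 0.208), and Rbm46os over the retinol acyltransferase gene Lrat at -0.21 (adjusted p = 0.497). The list moved in both directions.

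A few more transcripts were noted after their values had been seen. Carmn, a noncoding RNA known from smooth muscle, was at 0.39, 0.70 and 0.40 on chow and between 0.87 and 1.09 on the high fat diet (0.48, SE 0.12, adjusted p = 0.0789). Gm31774, over the steroid dehydrogenase gene Hsd17b2, was at 0.56 (adjusted p = 0.0744). Picked in the same way, 3 members of testis and vomeronasal gene families were lower without passing. They were Vmn1r-ps79 at -1.99 (adjusted p = 0.053), Speer4cos at -1.69 (adjusted p = 0.0548) and Vmn2r29 at -1.69 (adjusted p = 0.0763). Other members of these families were not counted. The sizes of Speer4cos and Vmn2r29 are uncertain, since 3 and 1 of 6 high fat pools were above background. With normexp these were at -0.59 and -0.50. In all 3 family members, chow replicate 1 was the highest pool, at 0.66, -0.78 and -1.05. The proteasome chaperone gene Psmd9 was at -0.68 (adjusted p = 0.0513), and 1700028E10Rik at 1.13 (adjusted p = 0.0636), while its other probe was at -0.05.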
